A study of Ovis aries with 36 samples.

Results

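Rectus femoris (RF) was compared with the mean of 8 other lamb muscles. In the hindquarter these were Adductor (AD), Semitendinosus (ST), Semimembranosus (SM), Gluteus medius (GM) and Gluteobiceps (GB), in the trunk Psoas major (PM) and Longissimus lumborum (LL), and in the shoulder Supraspinatus (SS). The RF samples were those whose muscle label is Rectus femoris, 4 of 36 samples in all. They are called RF1 to RF4, and in every muscle the sample number was taken as that of the animal. The question was which transcripts set this muscle apart from the others. RNA-Seq had been performed on tissue of 4 lambs, and each lamb contributed all 9 muscles, so every group holds the same animals. The lambs were unrelated Poll Dorset crosses of 14 months, males from different flocks that were kept on grassland and supplemented with soy crop and sorghum grain. No treatment was applied, and the groups were defined by the muscle label. Each sample was a piece cut soon after slaughter from the middle of the muscle belly, near its surface, so a group represents that site and not the whole muscle.

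RF is the head of the quadriceps that crosses both the hip and the stifle. Skeletal muscles mix slow fibres, which rely on oxidative metabolism and carry their own isoforms of troponin, myosin light chain and calcium pump, with fast fibres, which lean more on glycolysis. Muscles also keep the activity of HOX transcription factors, which in the embryo mark position along the body and the limbs. In samples of whole tissue, a smaller number of fibres of a type and less RNA in each of them cannot be told apart.

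The RF samples had 5256304 to 6304546 counts each, against 3699148 to 6427422 in the other 32. In RF, 67.7% to 71.4% of the counts fell in 4 short loci without annotation, and in the other samples 65.7% to 78.3%. Levels are given as CPM, the count relative to the TMM-scaled library total, and 3 counts, the limit that a count of 0 allows, were 0.437 to 0.591 CPM in RF, for counting error only. No gene is known to mark RF among limb muscles, so the label could not be checked by a marker, but the contraction genes TNNC1, TNNT1 and ATP2A2 were counted in 36 of 36 samples. A locus is a transcribed region as assembled by the authors. The files do not pair Ensembl identifiers with gene names, so a name is used only where the coordinates that the study tabulates on Oar_v3.1 fall in a single tested locus, which was the case for 30 genes. No marker gene of fibroblasts, adipocytes, endothelium, smooth muscle, nerve, immune cells or blood could be paired in this way, and these cell types were not analysed here.

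RF differed from the mean of the other 8 muscles at 82 of 12461 loci tested, or 0.658%, of which 18 (0.144%) also passed stricter limits given below. Of these, 62 were higher in RF (0.498%) and 20 were lower (0.161%), at a Benjamini-Hochberg false discovery rate (FDR) of no more than 0.05 in edgeR's quasi-likelihood test. At an unadjusted p under 0.05, 770 loci were higher and 541 lower. The median log2 fold change (log2FC, RF minus the mean of the other muscles) was 0.67 for the 62 higher loci and -1.71 for the 20 lower ones, beside 0.00667 over all loci tested. At the limits the study used, an FDR of no more than 0.01 with a log2FC beyond 1 in size, 12 loci were higher (0.0963%) and 6 lower (0.0482%). Within lambs, RF lay above the mean of the other muscles in 4 of 4 at 57 of the higher loci and below it in 4 of 4 at 20 of the lower ones, while 19.3% of all loci had the same sign in 4 of 4 lambs. The called loci were selected by a test on these differences, so shared signs among them, here and below, are no separate result. By the same test against the mean of their other 8 muscles, SM had 887 loci, SS 855, ST 722, LL 398, PM 184, GM 169, AD 30 and GB 26.

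**Figure D1:**
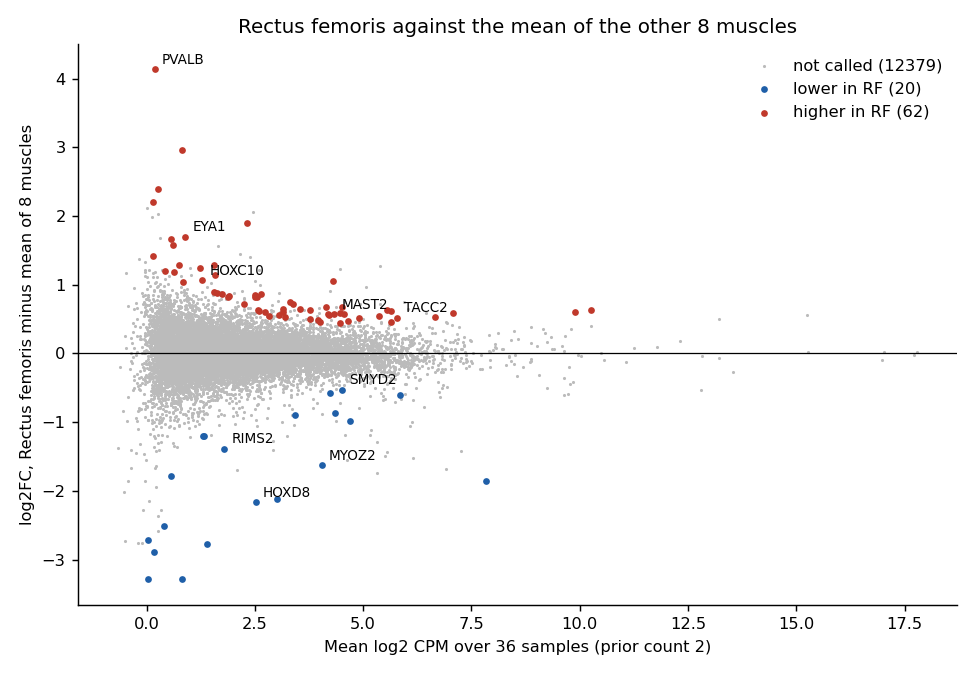
Each point is a locus, with its mean log2 CPM over 36 samples on the horizontal axis and its log2FC of Rectus femoris minus the mean of the other 8 muscles on the vertical axis. The coloured points are the 62 loci higher in RF and the 20 lower ones, and called loci paired with a gene name are labelled, with PVALB (4.13) at the top.

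The counts changed with single libraries and animals. Without RF1 there were 33 higher and 11 lower loci, without RF2 33 and 9, without RF3 40 and 11, and without RF4 37 and 11. With all 9 muscles of a lamb left out, they were 49 and 16 without animal 1, 52 and 18 without animal 2, 33 and 9 without animal 3, and 26 and 11 without animal 4. The fit adjusts for animal, and without that block 20 loci were higher and 4 lower. Of 33 called loci that were followed, 10 were called in each alternative that kept them: PVALB, EYA1, HOXD8 and MYOZ2 and 6 loci without a name here, all described below. With a filter of at least 10 counts in every sample, 8 of the 10 were not tested, and the exceptions were ENSOARG00000020376 and ENSOARG00000013116.

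Compared with each muscle in turn, RF differed at the fewest loci from GB, with 59 (0.473%), of which 32 were higher in RF (0.257%) and 27 lower (0.217%). Against ST there were 76 (0.61%), 55 higher (0.441%) and 21 lower (0.169%). Against AD there were 106 (0.851%), 59 higher (0.473%) and 47 lower (0.377%), and against SS 112 (0.899%), 51 higher (0.409%) and 61 lower (0.49%). The numbers were larger for GM, with 181 (1.45%), 74 higher (0.594%) and 107 lower (0.859%), and PM, with 203 (1.63%), 92 higher (0.738%) and 111 lower (0.891%). Against LL there were 280 (2.25%), 136 higher (1.09%) and 144 lower (1.16%). SM had the most, 659 (5.29%), with 358 higher in RF (2.87%) and 301 lower (2.42%). This order changed with the animals. The number for GB was 21 to 32 when an animal was left out, and it was above that for SS without animal 3 (32 and 28) and above that for ST without animal 4 (26 and 22). The number for SM was 195 to 465, and without animal 2 it was below that for LL (403 and 422). No locus differed from all 8 muscles in the same direction by edgeR's quasi-likelihood test at an FDR of at most 0.05, nor by the likelihood ratio test or DESeq2, while 3 were higher and 1 was lower at an unadjusted p under 0.05 in all 8. Against 7 muscles, 1 locus was higher in RF (0.00803% of the loci tested) and 2 were lower (0.0161%). Against at least 6, 8 were higher (0.0642%) and 7 lower (0.0562%). At each of these 15 loci, ST or SS was among the muscles from which RF did not pass the test.

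**Figure D2:**
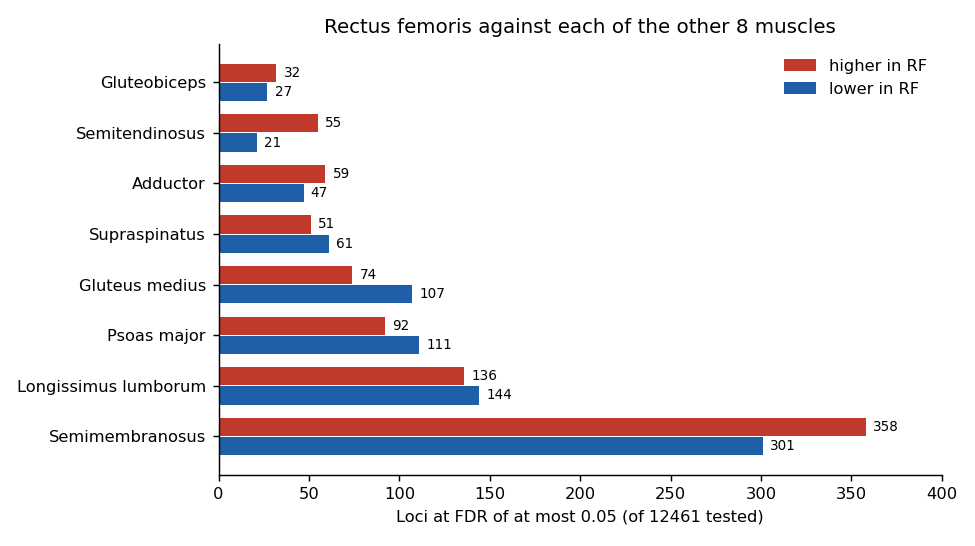
Bars give the number of loci, of 12461 tested, at an FDR of at most 0.05 between Rectus femoris and each other muscle, with loci higher and lower in RF as separate bars. The numbers run from 32 higher and 27 lower against Gluteobiceps to 358 and 301 against Semimembranosus.

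ST or SS had the most extreme mean of the other 8 muscles, in the direction of the call, at most of the called loci. At the 62 higher loci, the top mean among the other muscles was that of ST at 30 and of SS at 22. At the 20 lower loci, the bottom mean was that of SS at 13 and of ST at 6. Over all loci tested, the top mean was that of ST at 15.3% and of SS at 15.8%, and the bottom mean that of ST at 16.3% and of SS at 14.9%. These counts describe the called loci and were not tested. RF itself had the highest of the 9 means at 37 of the higher loci and the lowest at 10 of the lower ones. Over all 12461 loci tested, RF had the highest mean at 1065 and the lowest at 955. The called loci were selected for a high or low level in RF, so extreme ranks among them are no separate result.

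PVALB had the largest log2FC upward. It encodes parvalbumin, a calcium-binding protein of the cytosol that is typical of fast fibres in small mammals. Its level was 14.6 CPM in RF1, 8.15 in RF2, 3.16 in RF3 and 3.27 in RF4. The mean was 7.29 CPM ± 5.39 (SD, n = 4) in RF, 5.68 in ST and 5.63 in SS, and at most 0.662 in each of the other 6 muscles. All 4 RF samples lay above all samples of those 6 muscles and overlapped with ST and SS. The SS mean came mostly from animal 1 (17.4 CPM), while the other 3 SS samples had 1.24 to 2.18 CPM. The log2FC was 4.13 ± 0.35 (SE), with an FDR of 1.0e-09 in edgeR's quasi-likelihood test. Since all AD samples were at 0, this fitted value depends on the prior count of the fit and is no bound, and the ratio of the RF mean to the mean CPM of the other muscles was 4.52. Against single muscles, RF was higher than 6, while the log2FC was 0.20 against ST (FDR 0.883) and 0.66 against SS (FDR 0.578). The locus lies at chr3:180006084-180067626.

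EYA1, which encodes a phosphatase and transcriptional coactivator, was also higher in RF. The RF samples had 3.55, 4.22, 4.82 and 5.44 CPM, with a mean of 4.51 ± 0.812 (SD, n = 4). The mean was 4.63 CPM in SS, 2.12 in ST and 0.383 to 1.78 in the other 6 muscles. The RF samples lay above all samples of the 7 muscles other than SS. The log2FC was 1.70 ± 0.23 (SE; FDR 4.4e-06), and RF passed the test against 6 muscles, with 1.07 against ST (FDR 0.125) and -0.02 against SS (FDR 0.994). The locus spans chr9:47588481-47960610.

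**Figure D3:**
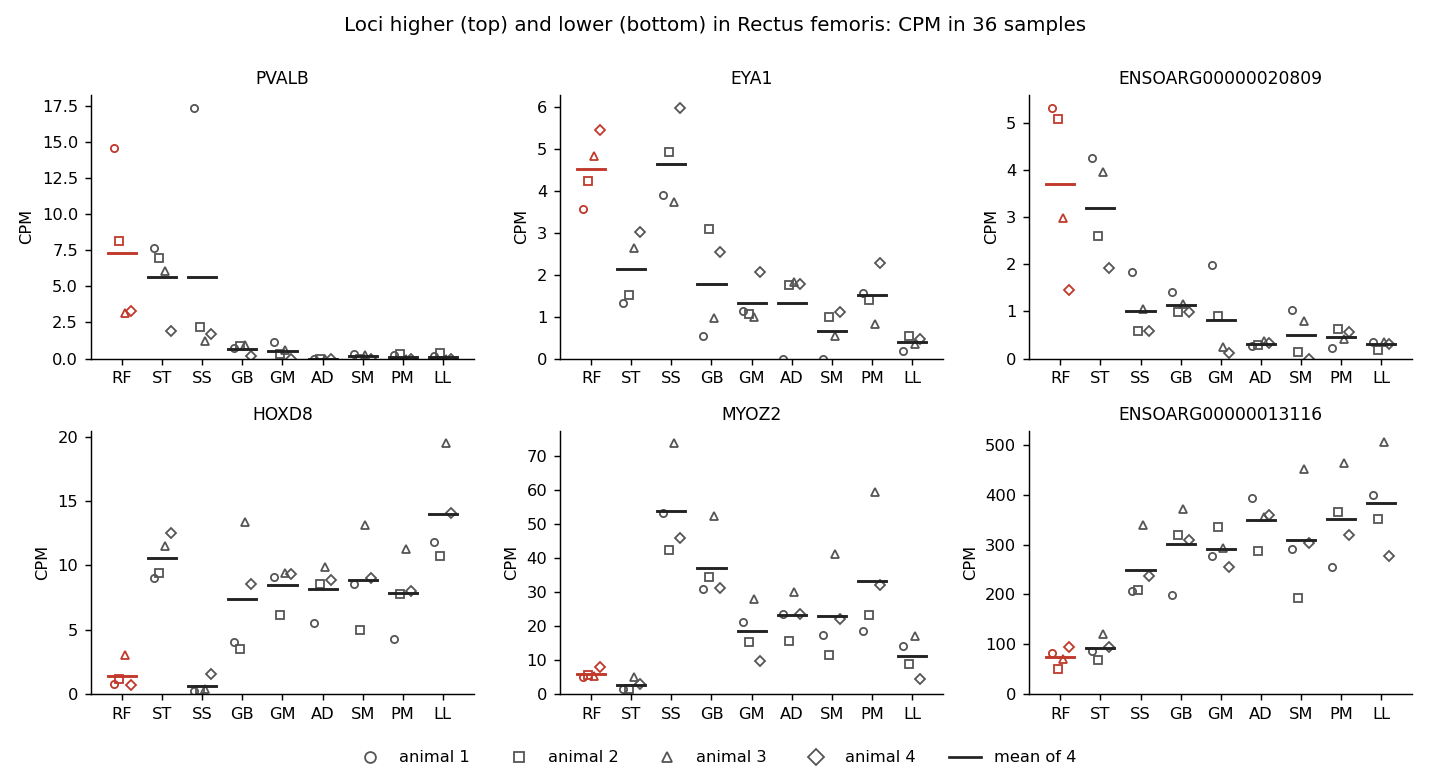
Panels show the CPM of 6 loci in 36 samples, by muscle on the horizontal axis, with a symbol for each animal and a bar at the mean of 4 samples. In PVALB, EYA1 and the chromosome 2 locus ENSOARG00000020809, the mean of RF lies with that of ST or SS above the other means, and in HOXD8, MYOZ2 and the chromosome 9 locus ENSOARG00000013116 with that of SS or ST below the other means.

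HOXD8, a homeobox gene of the HOXD group, was lower in RF. Its levels were 0.788 CPM in RF1, 1.16 in RF2, 2.99 in RF3 and 0.726 in RF4, which rest on 34 counts in all. SS had 0.229 to 1.54 CPM, and the means of the other 7 muscles lay between 7.39 in GB and 14.0 in LL. The RF samples were below all 28 samples of those 7 muscles and overlapped with SS. The log2FC was -2.16 ± 0.27 (SE; FDR 8.2e-07), with RF lower in 4 of 4 lambs. Against the 7 single muscles it ranged from -3.28 (LL) to -2.29 (GB), and against SS it was 1.24 (FDR 0.298). The locus lies at chr2:132873609-132877353.

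Within 50000 bases of HOXD8, 4 further loci were tested and none was called by edgeR's quasi-likelihood test. The log2FC of the 5 loci ranged from -2.36 to -0.78. The summed level of the 4 neighbours was 2.96 CPM in RF1, 3.49 in RF2, 3.33 in RF3 and 1.09 in RF4. It was 2.30 to 3.27 CPM in SS and 3.71 to 10.7 CPM in the samples of the other 7 muscles, so RF overlapped with SS alone. The neighbour at chr2:132882816-132884329, chosen after its values were seen, rested on 4 counts in RF and missed the threshold (log2FC -2.36 ± 0.62, FDR 0.0569). It passed with SS left out of the mean (-2.81, FDR 0.00312), by the likelihood ratio test (FDR 0.0103) and without a filter on low counts (FDR 0.00657).

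Of 4 paired genes on the list of HOX and other position regulators, 2 were higher in RF, 1 was lower and 1 did not pass. Over all loci tested, 0.498% were higher and 0.161% lower. All 4 could be paired only because the study listed them as differing in these samples, so the count is not independent evidence. HOXC10, which marks the hindlimb and lumbar region, was called higher, with 4.53, 3.35, 1.5 and 3.45 CPM in RF1 to RF4. Its mean of 3.21 CPM lay among those of the other muscles (2.09 to 3.50) except SS, the only forelimb muscle here, where all samples were at 0. The log2FC of 1.07 ± 0.25 (FDR 0.0205) depends on the prior count for that reason, and with SS left out of the mean it was 0.20 (FDR 0.781). The FDR was 0.189 without RF1, 0.0843 without RF2 and 0.117 without RF4. SIM2, a transcription factor, had 1.38, 0.291, 0.665 and 0.544 CPM in RF1 to RF4 and was not called (log2FC -0.56, FDR 0.712).

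MYOZ2, which encodes the Z-disc protein myozenin 2 (calsarcin 1) of slow fibres and heart, was lower in RF. Its levels were 4.93, 5.67, 5.32 and 7.80 CPM in RF1 to RF4, with a mean of 5.93 ± 1.28 (SD, n = 4). The mean was lower in ST alone (2.71), and it was 11.1 in LL and 53.9 in SS, the highest. The RF samples lay below all samples of SM, GB, GM, SS, AD and PM. The log2FC was -1.63 ± 0.25 (SE; FDR 0.00046), and RF was lower than 6 muscles, with -0.81 against LL (FDR 0.205) and 1.18 against ST (FDR 0.188). The locus lies at chr6:6264895-6303407. The study designed qRT-PCR primers for this gene, and they are shown from 5′ to 3′ to identify the transcript meant (qRT-PCR was not analysed here):
MYOZ2 forward: accacggttactgagatggg
MYOZ2 reverse: ggtgaagcagaggaaagagc

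Of 10 paired genes of slow fibre contraction, MYOZ2 was lower in RF and 9 did not pass, while 0.161% of all loci tested were lower. With ST left out of the mean, TPM3 (log2FC -1.01, FDR 0.00501) and CASQ2, a calcium-binding protein of the sarcoplasmic reticulum (-0.92, FDR 0.0247), passed as lower too. METTL21C passed without a filter on low counts (-1.68, FDR 1.44e-09), but its FDR was 0.429 to 0.729 in the filtered fits that each lacked an RF sample. Its levels were 0.998 to 2.33 CPM in RF, 0.871 to 6.64 in ST and 15.6 to 88.2 in SS. The median log2FC of the 10 was -0.45, beside 0.00667 over all loci tested. The fitted value was above 0 for ATP2A2, MYL3 and MYOM3, although the RF mean CPM was below the mean of the other muscles at 10 of 10. All 10 are genes the study named from these samples, so the list is not independent evidence. Against ST, 6 of the 10 were higher in RF and none lower (median 1.72). The 6 were TNNC1, TNNI1 and TNNT1, which encode slow troponin subunits, MYL3, a light chain of slow myosin, TPM3, a slow tropomyosin, and ATP2A2, the calcium pump of slow fibres and heart. Against SS, 8 of the 10 were lower in RF and none higher (median -1.52), and against PM also 8 and none (median -1.58). Against LL none of the 10 passed in either direction (median 0.22), while against SM, GB, GM and AD 1 or 2 were lower and at most 1 was higher.

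TNNC1 had 48.7, 79.9, 109 and 144 CPM in RF1 to RF4, and muscle means of 28.5 in ST, 95.4 in RF, 272 in SS and 328 in PM. RF lay above all ST samples and below all GB, SS and PM samples. The log2FC was 1.73 against ST (FDR 0.015), -1.52 against SS (FDR 0.0276) and -0.49 ± 0.26 against the mean of the other muscles (FDR 0.529). For MYL3, the mean was 45.8 CPM in RF and 2.84 in ST (log2FC 3.96, FDR 6.38e-06), and 57.3 in SS (-0.30, FDR 0.866). TPM3, with 24.6, 34.6, 49.7 and 89.3 CPM in RF1 to RF4, was not called (-0.67 ± 0.20, FDR 0.115) and passed without RF4 (-1.08, FDR 0.00123), without animal 4 (FDR 0.00072), by DESeq2 (FDR 0.0446) and without a filter (FDR 0.00214).

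The RF samples differed among themselves in these genes. RF4 had the highest CPM of the 4 at 8 of the 10 genes and RF1 the lowest at 6. The difference from the other muscles of the same lamb was the highest in animal 4 at 9 of the 10 genes and the lowest in animal 1 at 6. ATP2A2 had 115, 169, 263 and 298 CPM in RF1 to RF4, and its within-lamb differences in log2 CPM were -0.42, -0.16, 0.30 and 0.88. Its log2FC of 0.19 (FDR 0.769) was -0.10 without RF4. PVALB had its highest level in RF1. Whether the pieces held different shares of slow fibres was not tested.

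**Figure D4:**
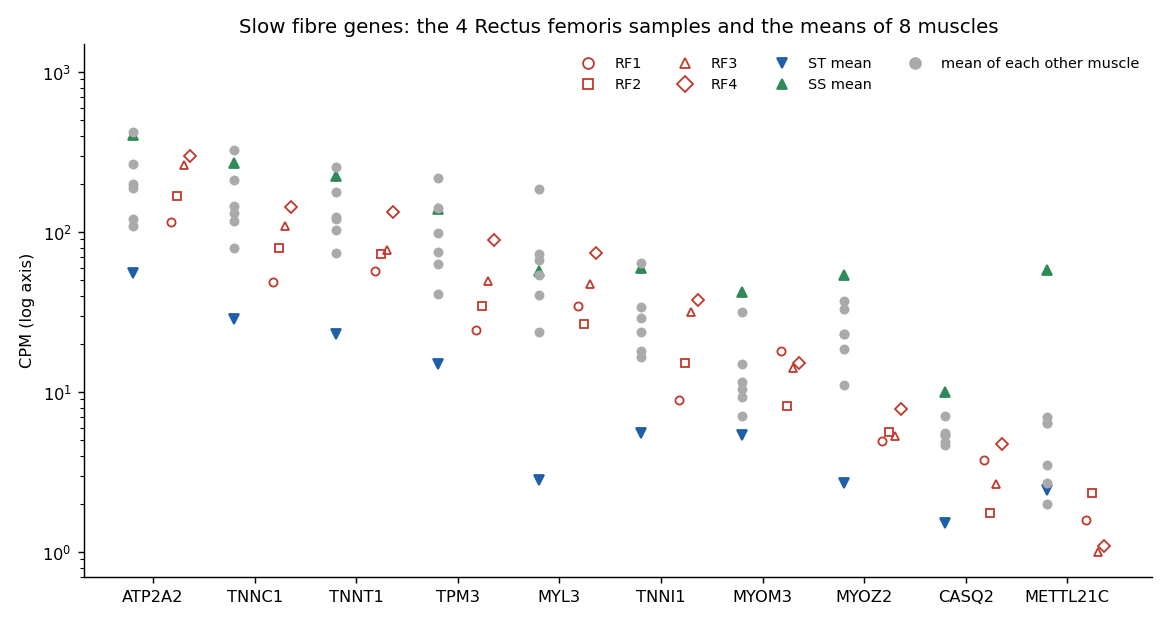
For 10 slow fibre genes, the CPM of the 4 Rectus femoris samples and the means of the other 8 muscles are shown on a log axis, with ST and SS marked by their own symbols. MYOZ2 (4.93 to 7.80 CPM) lies below all muscle means but that of ST, and RF4 is the highest RF sample at 8 of the 10 genes.

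The coordinates of MYL2, the regulatory light chain of slow myosin, and those of CCDC63 both fall in 2 loci with the same limits, chr17:54257918-54303146. The reads of the loci may not be separable, and which of them counts which gene was not settled here. Neither locus was called (log2FC -0.70, FDR 0.421, and -0.88, FDR 0.135). The second passed by DESeq2 (FDR 0.0206), with ST left out of the mean (-1.21, FDR 0.0146) and without animal 4 (FDR 0.0099), and both passed without a filter on low counts (FDR 0.00113 and 1.13e-05). Their RF means were 35.7 and 9.88 CPM, against 152 and 49.4 in SS and 10.5 and 3.53 in ST. The transcript that the study assigned to MYBPC1, the slow isoform of myosin-binding protein C, lies at a position that 4 tested loci share. The locus at chr3:170450235-170553298 is far wider than the stretch the study tabulates, so its values are not those of that transcript alone. Which of the others is that transcript was not settled here. At all but that at chr3:170450235-170553298, the RF samples overlapped with those of each other muscle. The locus at chr3:170450235-170553298 had 1243, 1243, 1217 and 1797 CPM in RF1 to RF4 and was higher in RF (log2FC 0.60 ± 0.13, FDR 0.00769). Its means were 1465 in SS, 1211 in ST and 558 in SM. The FDR was 0.139 without RF1, 0.173 without RF4 and 0.0628 with SM left out of the mean. PPP1R3D, which directs protein phosphatase to glycogen and was the only paired gene of glycolysis and glycogen, had 4.14, 5.24, 2.99 and 3.08 CPM and was not called (-0.54, FDR 0.199), but passed with SS left out of the mean (-0.73, FDR 0.0335).

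Of the 30 paired genes named by the study, 5 were higher in RF, 4 lower and 21 did not pass (median log2FC -0.13). Over all loci tested, 0.498% were higher and 0.161% lower. The list was chosen on these samples and so is not independent evidence. The 5 higher genes include MAST2, a microtubule-associated kinase, and TACC2, a centrosomal protein. MAST2 had 33.1, 21.4, 31.3 and 29.9 CPM in RF1 to RF4 (log2FC 0.57 ± 0.14, FDR 0.0334), with means of 30.4 in SS and 28.6 in PM. TACC2 had 69.2, 70.1, 92.5 and 71.3 CPM (0.52 ± 0.13, FDR 0.036), with means of 83.2 in SS and 68.9 in ST. The call of MAST2 was lost without RF1 (FDR 0.137), RF2 (0.156) or RF4 (0.222), and that of TACC2 without RF2 (0.238), RF3 (0.213) or RF4 (0.124).

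The 4 lower genes were HOXD8, MYOZ2, RIMS2 and SMYD2. RIMS2, a protein of the presynaptic active zone, had 2.56, 1.16, 0.499 and 1.27 CPM in RF1 to RF4, against means of 2.25 in ST, 0.598 in SS and 3.94 to 6.90 in the other 6 muscles. Its log2FC was -1.39 ± 0.31 (FDR 0.0175), and the FDR was 0.0732 without RF2, 0.174 without RF3 and 0.091 without RF4. SMYD2, a lysine methyltransferase, had 17.5, 15.7, 15 and 16.9 CPM, with 12 in SS and 21.2 to 31.3 in the other 7 muscles. Its log2FC was -0.53 ± 0.13 (FDR 0.029), and the call was lost without RF1, RF2, RF3 or RF4 (FDR 0.0853 to 0.15).

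CHI3L1, a secreted chitinase-like glycoprotein, was not called, and its locus joins 2 Ensembl genes, so its counts are uncertain. The levels were 49.1, 7.13, 14.1 and 11.1 CPM in RF1 to RF4, and the means were 4.72 in SS and 40.2 to 72.9 in the other 7 muscles. RF1 was the high sample. The log2FC was -1.18 ± 0.29 (FDR 0.0569), and without RF1 it was -1.83 (FDR 0.00018). With RF1 kept, it also passed by the likelihood ratio test (FDR 0.00758) and DESeq2 (FDR 0.000284), with at least 10 counts in every sample (FDR 0.0328), without a filter (FDR 2.71e-10) and with SS left out of the mean (-1.64, FDR 0.00312).

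Loci with an Ensembl identifier but no name here fall outside the rule for named genes, and those given next were chosen after their values were seen. ENSOARG00000013116, at chr9:89664737-89675620, had the smallest FDR of all. It was at 81.4, 50.5, 69.7 and 94.0 CPM in RF1 to RF4, at 69.0 to 121 CPM in ST, and at means of 248 to 383 CPM in the other 7 muscles. RF lay below all samples of those 7 muscles and overlapped with ST. The log2FC was -1.86 ± 0.17 (SE; FDR 3.2e-10), or 3.62-fold lower, and against ST it was -0.30 (FDR 0.592). ENSOARG00000009272, at chr26:18435088-18463659, had 19.5, 11.1, 21 and 7.98 CPM in RF1 to RF4 (-0.98 ± 0.16, FDR 0.000293), with means of 18.3 in ST, 20.8 in SS and 28.1 to 42.4 elsewhere. Its FDR was 0.495 without the block for animal.

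ENSOARG00000020809, at chr2:233224523-233231131, was higher than 7 muscles. It had 5.32, 5.09, 2.99 and 1.45 CPM in RF1 to RF4, 1.93 to 4.25 CPM in ST and means of 0.299 to 1.13 elsewhere. The log2FC was 2.39 ± 0.27 (FDR 8.0e-08), and against ST 0.19 (FDR 0.88). ENSOARG00000020376, at chr1:95558815-95685096, had 46.3, 31.4, 34.6 and 37.4 CPM in RF1 to RF4 (1.05 ± 0.13, FDR 3.7e-07), with means of 31.3 in SS, 28.1 in ST and 11.5 to 19.8 elsewhere. Both were higher in RF in 4 of 4 lambs.

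A locus at chr19:54258120-54376226 had 4.73, 2.18, 2.99 and 1.81 CPM in RF1 to RF4 (log2FC 2.2 ± 0.32, FDR 2.1e-05), with means of 2.93 in RF, 2.91 in ST and 1.30 in SS. Another at chr2:36778009-36795204 had 3.55, 2.91, 3.33 and 3.08 CPM (1.58 ± 0.28, FDR 0.000734), with means of 2.87 in ST and 1.82 in SS. In both, the means of ST and SS were the next below that of RF.

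On chromosome 20, neighbouring loci were higher in RF. At chr20:49693089-49762526 the levels were 22.5, 8.58, 22.5 and 11.4 CPM in RF1 to RF4, with means of 31.9 in ST, 11.7 in SS and 1.10 to 5.70 in the other 6 muscles (log2FC 1.89 ± 0.26, FDR 0.000171). Beside it, at chr20:49762606-49765006, lies an unannotated transcript that the study assigned to MYLK4, a myosin light chain kinase, with 4.53, 1.6, 4.66 and 1.63 CPM (1.66 ± 0.30, FDR 0.000932). RF1 and RF3 were the high samples in both. At the second, RF was lower than ST (-1.28, FDR 0.0469), and the call was lost without animal 3 (FDR 0.0641).

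A further 4 loci were each higher than 6 muscles. They were chr3:79242090-79249093 (log2FC 1.24, 2.76 to 5.91 CPM in RF), chr3:104735638-104827450 (1.29, 2.00 to 4.17 CPM), chr7:19578602-19744979 (0.64, 15.1 to 18.7 CPM) and chr7:51436813-51565461 (0.57, 24.7 to 27.8 CPM). The call at chr3:104735638-104827450 was lost without animal 4 (FDR 0.0556), and that at chr7:51436813-51565461 without animal 3 (FDR 0.052) or 4 (FDR 0.0565). The called locus with the highest level in RF was at chr24:25921006-25950457, with 2311, 1927, 1454 and 1644 CPM in RF1 to RF4 (0.63 ± 0.14, FDR 0.0143) and means of 1957 in ST and 1231 in SS. Its FDR was 0.137 without RF1, 0.186 without RF2 and 0.0692 without RF4. A locus without an Ensembl gene at JH921654.1:2-4463 had 16.2, 19.1, 8.82 and 19 CPM (0.75 ± 0.14, FDR 0.00257), and its FDR was 0.0995 without RF2 and 0.0573 without animal 4.

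One called locus rested on a single library. At chr1:269853661-270020729 the level was 78.4 CPM in RF1 and 0.582, 2.66 and 0.726 CPM in RF2 to RF4, and 0.316 to 3.65 CPM in the other 32 samples. The log2FC of 2.96 (FDR 0.00769) was -0.06 (FDR 0.983) without RF1. A lower locus at chr21:25076246-25097889 had 1.77, 4.07, 1.5 and 1.09 CPM in RF and means of 5.55 to 15 elsewhere (-2.12 ± 0.51, FDR 0.049). Its FDR was 0.224 without RF1, 0.233 without RF3 and 0.196 without RF4.

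Unannotated loci on chromosome 3 made up 6 of the 20 lower loci. At chr3:138819344-138863155, 10 neighbouring loci without an Ensembl gene were tested, with log2FC from -3.28 to -1.32. They were taken within 50000 bases of an unannotated transcript that the study listed as higher in SM than in SS. That transcript is among the 6, so the region was not found independently of the study. Neighbours may be parts of the same transcript, so they do not count as independent results. The sum over the 10 was 0.394 CPM in RF1, 3.49 in RF2, 4.16 in RF3 and 0.363 in RF4. It was 0.915 to 3.54 CPM in SS, 1.06 to 13.4 in ST and 15.2 to 66.3 in LL, the highest. Animals 2 and 3 lay above animals 1 and 4 in each of the 9 muscles, and RF overlapped with SS, ST, GB and SM. Within lambs, RF was below the mean of the other muscles in 4 of 4 at each of the 6 called loci.

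The call with the smallest FDR among the 6, at chr3:138823794-138828966 (-2.77 ± 0.41, FDR 3.1e-05), and that at chr3:138839190-138842956 (-3.28 ± 0.56, FDR 0.000557) held without each RF sample, but the latter was lost without animal 3 (-2.72, FDR 0.0971). That at chr3:138835874-138837855 was lost without RF2 (FDR 0.0762), and that at chr3:138821773-138823589 without RF2 (0.0945), RF3 (0.327) or RF4 (0.0667). Those at chr3:138846671-138849249 (FDR 0.0629 to 0.218) and chr3:138819344-138821689 (FDR 0.0774 to 0.32) were lost without RF1, RF2, RF3 or RF4. All 6 were lost without the block for animal. A locus at JH921911.1:37-1768 had means of 0.078 CPM in RF, from 2 counts, 0.133 in SS and 2.74 in LL (-3.29 ± 0.79, FDR 0.0297), and its call was lost without RF1, RF2, RF3 or RF4 (FDR 0.0667 to 0.19).

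**Figure D5:**
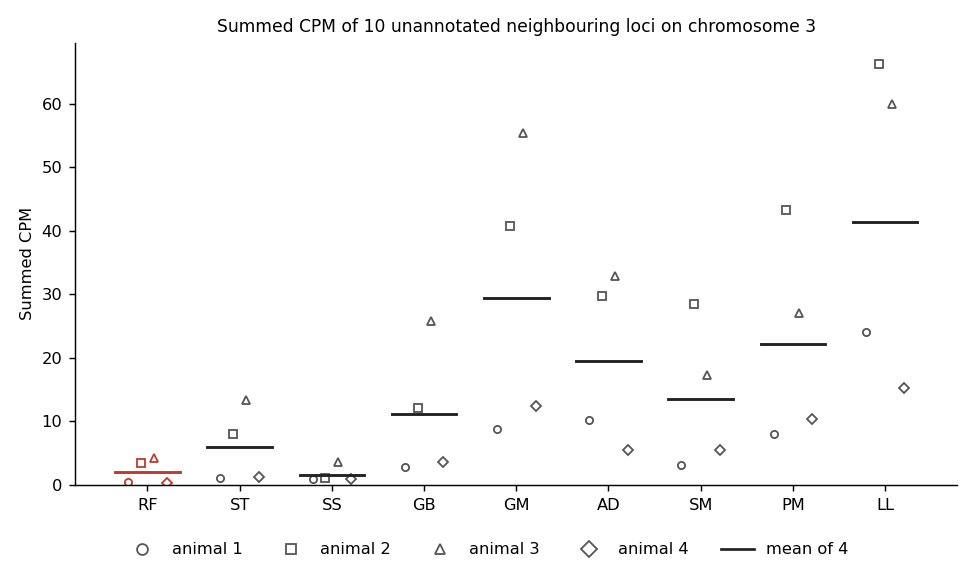
The vertical axis gives the summed CPM of 10 unannotated neighbouring loci on chromosome 3 in each sample, by muscle, with a symbol for each animal and a bar at the mean of 4. RF (0.363 to 4.16) and SS (0.915 to 3.54) are at the bottom, LL (15.2 to 66.3) is at the top, and animals 2 and 3 lie above animals 1 and 4 in each muscle.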

How the data were processed

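Muscle RNA of 36 samples, 9 muscles of 4 lambs, had been sequenced as paired ends. The deposited files hold raw counts per locus, which the authors made with TopHat2 2.0.13, Cufflinks 2.2.1 and HTSeq on Oar_v3.1. Strand use in counting and the lane of each sample are not given in the sources used here. Each file had 31530 entries, and 394 repeats were dropped to leave 31136 loci.

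Counts were normalised by TMM and tested with edgeR 4.0.16 (R 4.3.3, limma 3.58.1; quasi-likelihood, robust, Benjamini-Hochberg adjustment) over 12461 loci kept by filterByExpr. A single fit of all samples had muscle and animal as factors, with RF minus the mean of the other 8 muscles as contrast. The SE was the log2FC over the root of F. Animals pair the samples by design. Deviations from the muscle means correlated at 0.234 on average between RF and same-animal samples (lowest 0.088, 32 pairs). The average of -0.0772 between different animals follows largely from subtracting the muscle means, so it adds no support for the pairing. Different muscles of a lamb are separate samples, and RF samples differed beyond counting noise (chi-square per degree of freedom 5.89 to 10.9). The script was tested on simulated data. Alternatives were the likelihood ratio test, DESeq2 1.42.0, RLE factors, other filters, removal of the 4 most counted loci, no animal block, each muscle left out of the mean, each animal left out, and, chosen after seeing the data, each RF sample left out.

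Of 38 study genes with coordinates, 30 were paired with a locus. Named loci are those with the smallest p in each direction and the same sign in 4 of 4 lambs (15 with a symbol, 5 without an Ensembl gene), members of fixed lists (called, or up to 5 uncalled) and genes named by the study. The muscle, the lists and the tests were chosen with earlier results of these data known. Besides those reported, the lists of citrate cycle, fatty acid, satellite cell, stretch, stress, clock and ribosome genes had 0 paired genes and were not analysed here, and the fast fibre list had PVALB alone (1 higher).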

Additional observations from a re-analysis of the deposited data

Results flagged for a closer look

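The differences between RF and the other muscles of the same lamb were examined at 48 loci for an animal whose gap to the nearest other, over the whole range of the 4, was above Dixon's critical value. At 7 loci such an animal was found. The critical value allows about 1 in 20 by chance among independent, normally distributed values. The loci examined were picked for this report and some are neighbours, so an excess over chance was not tested. For CHI3L1, the difference in log2 CPM was -0.031 in animal 1 and -1.72, -1.77 and -1.79 in the others. For MYL3 it was 0.873 in animal 4 and -0.0601, -0.196 and -0.114 in the others. For PPP1R3D it was 0.00585 in animal 2 and -0.753, -0.708 and -0.715 in the others. For SMYD2 it was -0.378 in animal 1 and -0.544, -0.564 and -0.542 in the others. At chr21:25076246-25097889 it was -0.276 in animal 2 and -2.53, -2.88 and -2.65 in the others. On chromosome 3 it was -2.01 in animal 2 at chr3:138835874-138837855 (others -1.39, -1.43 and -1.46) and -2.27 in animal 3 at chr3:138846671-138849249 (others -1.35, -1.32 and -1.27).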

How the results depend on the processing

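Of 33 called loci followed, 10 kept their call under each alternative that tested them (22 for 8 of them, which a filter of at least 10 counts in every sample removes, and 23 for 2). Without the animal block there were 20 higher and 4 lower loci (7 and 2 at the stricter limits), all 24 of them among the 82, and 159 against SM, 22 ST, 10 GB, 20 GM, 15 SS, 84 LL, 20 AD and 26 PM. Without a filter the counts were 193 and 113 (47 and 38), with 309 ST, 222 GB, 394 GM, 378 SS, 525 LL, 357 AD, 446 PM and 3 loci against all 8 muscles. With at least 10 counts in every sample, 10 were lower (1 and 1), with 47 ST, 24 GB, 160 LL and 59 AD. The likelihood ratio test gave 31 lower (19 and 13) and 147 ST, and DESeq2 115 ST. With ST left out of the mean there were 107 and 43 (13 lower at the stricter limits), and with SS left out 36 lower (19).

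Leaving out each animal gave 26 to 52 higher and 9 to 18 lower loci (7 to 13 and 3 to 7), 195 to 465 for SM, 22 to 75 ST, 21 to 32 GB, 61 to 126 GM, 28 to 92 SS, 115 to 422 LL, 35 to 64 AD, 63 to 197 PM and 0 against all 8. Leaving out each RF sample gave 33 to 40 and 9 to 11 (7 to 16 and 6 to 8).

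Signs changed at values near 0. With ST left out of the mean, ATP2A2 was -0.058, MYL3 -0.411 and MYOM3 -0.069. MYOM3 was -0.006 with LL left out, and TNNI1 was 0.021 with SS and 0.043 with PM left out. Over the fits that each lacked an animal or an RF sample, the log2FC was -0.064 to 3.498 at chr1:269853661-270020729 (below 0 without animal 1 or RF1 alone), -0.494 to 0.044 for TNNI1, -0.096 to 0.354 for ATP2A2, -0.189 to 0.268 for MYL3 and -0.111 to 0.286 for MYOM3. The cause was not tested. Counts in RF are few at HOXD8 and the chromosome 3 loci, which limits their precision.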
